A study of Macaca mulatta with 27 samples.

Results

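The LIF receptor, JAK-STAT3 and SOCS3 axis was followed by symbol through the count tables in 9 genes: LIFR, IL6ST, JAK1, JAK2, STAT3, SOCS3, SOCS2, PIM1 and BCL3. All 9 were found among the 17967 gene symbols. They were taken by name, with earlier results of these data known. Bulk RNA-seq was available from 27 libraries of rhesus macaque ESCs, 6 of primed cells and 3 of each of 7 protocols. STAT3-ERT2 was activated in TL2i and TL-CDK8/19i, and it was left inactive in LCDM (EPS), t2iLGöY, NHSM-v, E-NHSM and 4i/L/b. Per the study's methods, the cells came from a single clonal line, LyonES-tGFP-(S3), that carries a tauGFP reporter driven by the CAG promoter and a lentiviral STAT3-ERT2 transgene, so primed cells and all protocols share both insertions. STAT3-ERT2 is STAT3 fused to a tamoxifen-binding part of the estrogen receptor, and it becomes active when tamoxifen is added. Tamoxifen was part of TL2i, together with LIF and inhibitors of MEK and GSK3β, and of TL-CDK8/19i, in which a CDK8/19 inhibitor took the place of the MEK and GSK3β inhibitors. The other 5 protocols were used without tamoxifen. The study's main text does not list what those 5 media held, so the contrast with them cannot be read as LIF against no LIF. Per the paper, primed cells were passaged mechanically in clumps, whereas cells of the protocols were passaged as single cells. This difference cannot be told apart from the media. No source used here says whether the libraries of a group came from separate cultures, so p-values measure only the spread between these libraries, which may be technical.

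LIF binds LIFR, which pairs with the shared signal-transducing chain gp130, encoded by IL6ST. The kinases JAK1 and JAK2, bound to these receptors, phosphorylate STAT3, which then enters the nucleus and drives genes that include SOCS3, whose product binds gp130 and JAKs and shuts the signal down. In mouse ESCs this pathway sustains self-renewal in the naive state, while primed primate PSCs do not rely on it. STAT3-ERT2 acts downstream of receptor and kinase, and RNA levels report neither STAT3 phosphorylation nor its presence in the nucleus.

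Library totals ranged from 7111886 to 20760914 counts with a median of 12201171, and levels are given as CPM (counts scaled to a fixed library total) after TMM scaling over all libraries. With no gene lengths at hand, levels were compared between groups and never between genes. The labelled cell type, pluripotent cells, was checked against 9 markers. Their summed level was 5787 to 6625 CPM in primed cells, 6862 to 6940 CPM with E-NHSM, 1719 to 2354 CPM with TL-CDK8/19i and 130 to 624 CPM in the other 5 protocols, of which NHSM-v, 4i/L/b, t2iLGöY and LCDM had NANOG at or under 3 counts per library. The summed level of 8 fibroblast markers was 407 to 451 CPM with E-NHSM, 1138 to 2407 CPM in primed cells, 7864 to 8410 CPM with NHSM-v, 8710 to 11281 CPM with TL-CDK8/19i and 11628 to 15106 CPM with 4i/L/b, and DCN and LUM were at or under 3 counts in primed, E-NHSM and t2iLGöY cells. The 7 neural markers summed to 43.6 to 118 CPM in primed cells and 3176 to 3500.3 CPM with LCDM. In bulk samples a change in the share of a cell type cannot be told apart from a change in RNA per cell.

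Against primed cells, both receptor chains and JAK1 rose in most protocols, while JAK2 was called in only 2, once higher and once lower. Of 3 known STAT3 target genes among the members, SOCS3 and PIM1 were called lower or did not pass. BCL3, near the detection limit, was called higher in 6 protocols, the only direction in which it could be called. IL6ST and JAK1 were called higher in 6 of 7 protocols, LIFR in 5 and STAT3 in 4, and none of these 4 genes was called lower in any. SOCS3 was called lower in 4 protocols and PIM1 in 5, and neither was called higher in any. A gene was called where the quasi-likelihood test of edgeR, corrected over every gene tested in that comparison, gave an adjusted p under 0.05. All 7 comparisons share the 6 primed libraries, so the calls in different protocols are not independent. How many of all genes were called alike in as many protocols was not counted.

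The counts per protocol have to be read against how many genes were called in all. With NHSM-v, 7 of the 9 members were called, 6 higher and 1 lower, where 58.6% of all genes tested were called, 28% higher and 30.6% lower. With t2iLGöY the count was also 6 higher and 1 lower, against 54.3% of all genes, 27.1% higher and 27.2% lower. LCDM gave 4 higher and 3 lower against 57.1%, 28.2% higher and 28.9% lower. TL2i gave 5 higher and 2 lower against 50.7%, 25.6% higher and 25.2% lower. With 4i/L/b, 5 members were called higher and 1 lower, against 55.6%, 26.6% higher and 29% lower. In TL-CDK8/19i, 4 of the 8 members that could be tested were called, all higher, against 46.1% of all genes, 22.3% higher and 23.8% lower. E-NHSM, in which 26.2% of all genes were called, 11.1% higher and 15.1% lower, had 2 members called higher and 2 lower. The total called lay near the background in TL-CDK8/19i and above it by fewer than 3 members elsewhere. These totals include BCL3 in each protocol but TL-CDK8/19i, where it was not tested, and BCL3 could only be called higher.

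**Figure D1:**
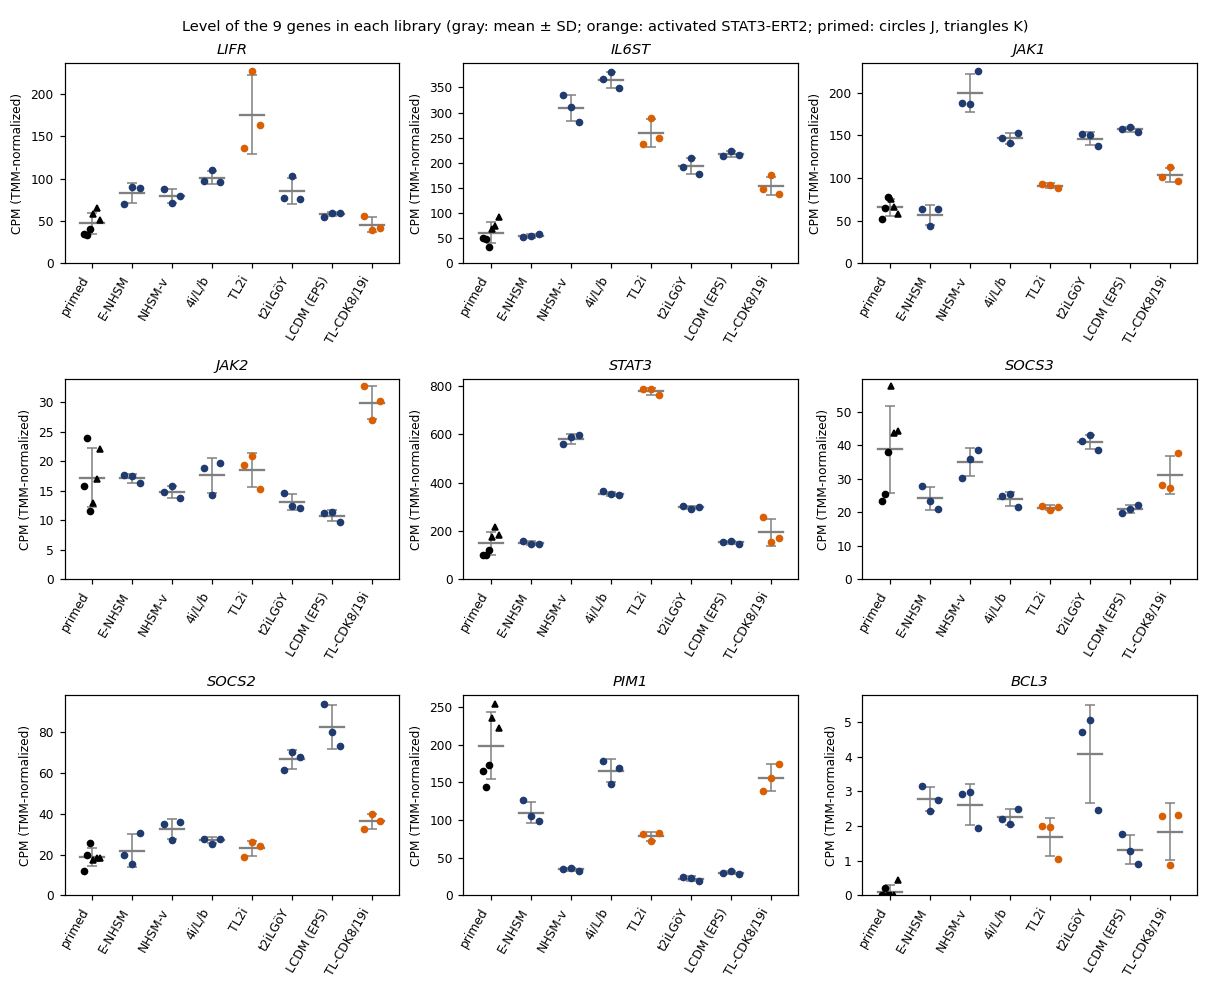
Levels of the 9 genes in CPM (linear axes from 0) in each library by group, with gray bars for mean ± SD (n = 6 primed, n = 3 per protocol). STAT3 stood at 762 to 789 CPM with TL2i but at 155 to 258 CPM with TL-CDK8/19i, the other protocol with tamoxifen, and SOCS3 with TL2i lay below every primed library.

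LIFR, the LIF-binding receptor chain, was measured at 33.6 CPM in the lowest, 45.4 CPM at the median and 64.8 CPM in the highest of the 6 primed libraries. With TL2i its level was 136, 226 and 163 CPM in the 3 libraries. All 3 lay above every primed library, and the fitted log2 fold change was 1.89 ± 0.20 (SE, adjusted p = 3.84e-06). With 4i/L/b the libraries stood at 96.8, 109.5 and 96.3 CPM, a log2 change of 1.05. The libraries of t2iLGöY (77.5, 103 and 76.1 CPM), E-NHSM (69.4, 89.8 and 89.4 CPM) and NHSM-v (88.0, 71.3 and 79.7 CPM) were also above all primed ones, with log2 changes of 0.89, 0.81 and 0.73 that passed the test. LCDM (55.1, 59.9 and 58.8 CPM) and TL-CDK8/19i (56.2, 39.7 and 41.5 CPM) overlapped the primed range and were not called. In the order of the 8 group means, only the step from 4i/L/b to TL2i passed among the 7 pairs of neighbours (log2 difference 0.80, adjusted p = 0.00333).

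IL6ST encodes gp130, the chain that LIFR shares with the receptors for IL-6, IL-11, OSM and CNTF. Primed libraries ranged from 32.9 to 92.0 CPM with a median of 59.7 CPM. The highest levels were 367, 379.9 and 348 CPM with 4i/L/b (log2 change 2.53 ± 0.22, adjusted p = 3.49e-07) and 334, 311 and 282 CPM with NHSM-v (2.31). TL2i gave 238, 290.0 and 249 CPM (2.08), LCDM 213, 224 and 216 CPM (1.83), and t2iLGöY 193, 209 and 177 CPM (1.68). The lowest of the called protocols was TL-CDK8/19i, at 148, 175 and 139 CPM (log2 change 1.28, adjusted p = 0.000327). Every library of these 6 protocols lay above the highest primed library. E-NHSM, at 52.0, 53.5 and 58.9 CPM, stayed inside the primed range. The summed fibroblast markers were 11628 to 15106 CPM in 4i/L/b and 7864 to 8410 CPM in NHSM-v, the 2 groups with the highest IL6ST. They were 8710 to 11281 CPM in TL-CDK8/19i, above NHSM-v, although its IL6ST was the lowest of the called protocols. TL2i had 2958 to 5750 CPM of these markers and t2iLGöY 3420 to 4030 CPM. LCDM, also above all primed libraries in IL6ST, had 777 to 1006 CPM. The part of these markers' cells in the IL6ST levels was not tested.

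JAK1, the kinase most needed for gp130 signaling, was called higher in the same 6 protocols as IL6ST, although their order differed. TL2i, at 4.24 times the primed mean for IL6ST, was the lowest of the 6 for JAK1, at 1.38 times. Primed libraries held 52.4 to 78.3 CPM (median 65.5 CPM). NHSM-v reached 188, 186 and 226 CPM, a log2 change of 1.58 ± 0.13 (adjusted p = 4.82e-08). LCDM (157, 160.3 and 154 CPM), t2iLGöY (151, 150.4 and 137 CPM) and 4i/L/b (146, 141 and 153 CPM) had log2 changes of 1.26, 1.18 and 1.11. Both protocols with tamoxifen lay lower than those 4. TL-CDK8/19i stood at 101, 113 and 96.5 CPM (0.60) and TL2i at 93.6, 91.3 and 87.8 CPM (0.46), still without overlap with primed cells, and the step from TL-CDK8/19i up to t2iLGöY passed (log2 difference 0.50, adjusted p = 0.00155). E-NHSM overlapped the primed range (64.0, 43.3 and 63.2 CPM).

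JAK2, which also binds gp130 and is the main kinase of several single-chain cytokine receptors, moved little. Its primed range of 11.6 to 24.0 CPM (median 16.4 CPM) overlapped 5 protocols. TL-CDK8/19i stood above it at 32.7, 27.1 and 30.2 CPM (log2 change 0.74 ± 0.23, adjusted p = 0.0163), although the call was lost when TL-CDK8/19i replicate 1 was left out (0.70, adjusted p = 0.0686). LCDM lay below it at 11.3, 11.4 and 9.74 CPM (-0.67, adjusted p = 0.0479). That call was lost without any single LCDM library or without primed J1, J2, K2 or K3, at adjusted p from 0.0552 to 0.165.

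STAT3, the transcription factor that receptor and kinases converge on, showed the widest separation between the 2 protocols with activated STAT3-ERT2. Primed libraries held 100.2 to 216 CPM with a median of 148 CPM. In TL2i the level was 789, 787 and 762 CPM, a mean of 779 ± 15.1 CPM (SD, n = 3) and 5.20 times the primed mean of 149.8 ± 48.3 CPM (SD, n = 6). The fitted log2 change was 2.37 ± 0.20 (adjusted p = 3.58e-07). In TL-CDK8/19i it was 258, 155 and 173 CPM, which overlapped primed cells and was not called (0.33, adjusted p = 0.265). NHSM-v, which had no tamoxifen, had the next highest level after TL2i at 559, 588 and 599 CPM (1.93). 4i/L/b (364, 352 and 348 CPM) and t2iLGöY (303, 293 and 299 CPM) were higher by 1.20 and 1.02. E-NHSM (159, 148 and 145 CPM) and LCDM (154, 161 and 149 CPM) sat at the primed mean. In the order of group means, the step from NHSM-v to TL2i did not pass in the fit of all 8 groups (log2 difference 0.42, adjusted p = 0.0673), although their libraries did not overlap. Reads of the STAT3-ERT2 transgene may be counted under the STAT3 symbol in every group, and endogenous STAT3 and transgene cannot be told apart in these tables.

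**Figure D2:**
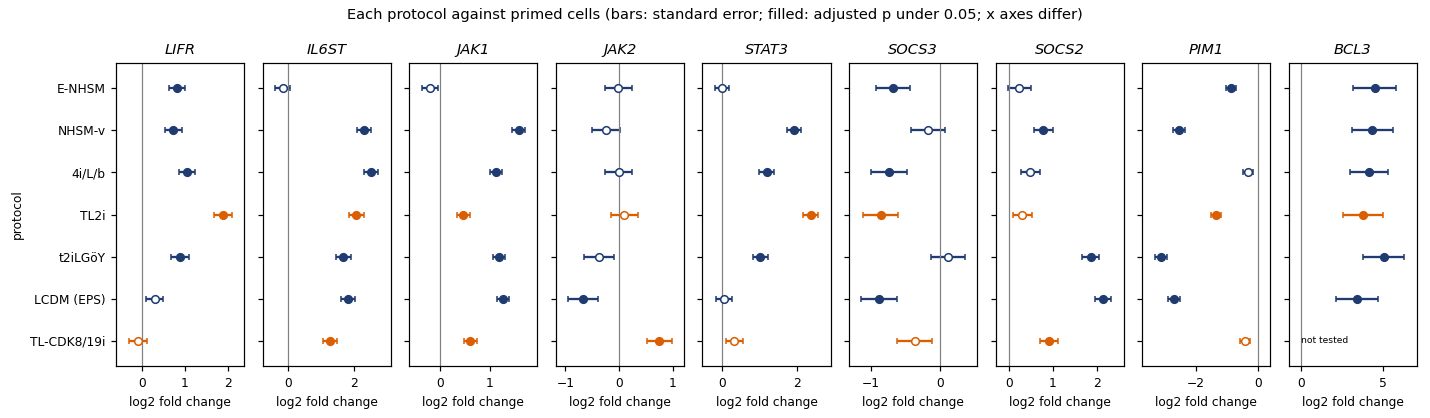
Fitted log2 fold changes of the 9 genes in each protocol against primed cells, with the standard error as bars and filled points for an adjusted p under 0.05 (orange for the protocols with tamoxifen; BCL3 was not tested with TL-CDK8/19i). IL6ST and JAK1 lie right of 0 in 6 of 7 protocols, and PIM1 lies left of 0 in all 7, 5 of them called.

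SOCS3, the feedback inhibitor that STAT3 induces, was not called higher than in primed cells in any of the 7 protocols. Its level ran from 23.3 to 57.8 CPM over the primed libraries (median 40.8 CPM), the mean being 38.7 ± 12.9 CPM (SD, n = 6). With TL2i, where STAT3 was highest, it was 22.0, 20.6 and 21.6 CPM, a log2 change of -0.86 ± 0.25 (adjusted p = 0.0118). With LCDM it was 19.8, 21.1 and 22.3 CPM (-0.88, adjusted p = 0.0101). These were the 2 groups that lay wholly below the primed libraries. 4i/L/b (24.8, 25.4 and 21.5 CPM, -0.74, adjusted p = 0.0261) and E-NHSM (27.9, 23.4 and 21.04 CPM, -0.69, adjusted p = 0.0468) were called lower but overlapped primed cells. TL-CDK8/19i stood at 28.2, 27.3 and 37.6 CPM (-0.37, adjusted p = 0.255), and NHSM-v at 30.3, 35.8 and 38.5 CPM (-0.18). The highest protocol was t2iLGöY, at 41.3, 42.9 and 38.7 CPM (0.11), close to the primed median. No neighbouring pair in the order of the 8 SOCS3 means passed the test, and 12 of all 28 pairs did. The call in E-NHSM was lost without primed K1, K2 or K3 or any E-NHSM library (adjusted p from 0.0732 to 0.187), and that in 4i/L/b without primed K1, K2 or K3 or any 4i/L/b library (0.0507 to 0.102).

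The fall of SOCS3 rests on which primed libraries it is set against. The primed columns carry the letters J and K, 3 each, whose meaning is not given in the sources used here. The sample labels name separate sets of primed libraries but do not place them in sets in the same way in every field, so J and K may match such sets and were not assigned to them. SOCS3 was 23.3, 25.4 and 37.9 CPM in J and 57.8, 43.7 and 44.3 CPM in K, with no overlap (log2 difference K minus J 0.75, adjusted p = 0.0682). Against J alone, none of the 4 falls passed: the log2 change was -0.43 with LCDM, -0.42 with TL2i, -0.29 with 4i/L/b and -0.26 with E-NHSM, at adjusted p of 0.131, 0.128, 0.295 and 0.477. Against K alone, SOCS3 passed as lower in TL-CDK8/19i (-0.69) and NHSM-v (-0.50) as well.

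Between the letters, 4 of the 9 members differed, all higher in K, where 3.73% of all genes were called. BCL3 could not be tested between the letters. STAT3 was 100.2, 102 and 122 CPM in J and 175, 216 and 184 CPM in K (log2 difference 0.82, adjusted p = 0.00102). IL6ST differed by 0.82, LIFR by 0.67 and PIM1 by 0.55, at adjusted p of 0.0187, 0.0417 and 0.00547. For STAT3 the letter set the sign in 2 protocols: with E-NHSM the log2 change was 0.48 against J and -0.34 against K, and with LCDM 0.54 and -0.31, all 4 past the test, while the change against all 6 was 0.00 and 0.04. TL-CDK8/19i exceeded J in STAT3 (0.82, adjusted p = 0.00456) but was not called against all 6. LIFR passed as higher in LCDM against J alone (0.70). Against K alone, PIM1 passed as lower in 4i/L/b (-0.54) and TL-CDK8/19i (-0.65), and IL6ST as lower in E-NHSM (-0.51). This comparison of letters was added after the levels had been seen.

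**Figure D3:**
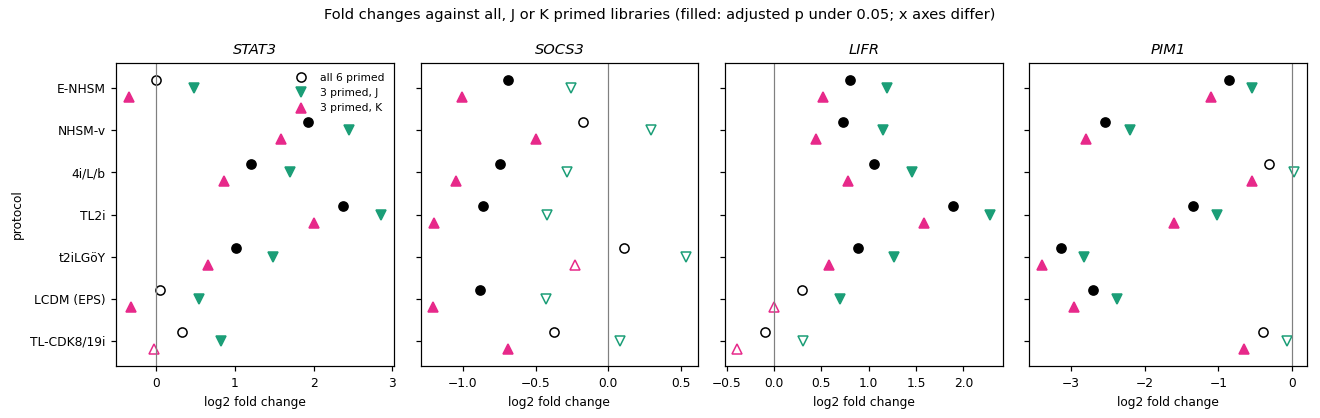
Log2 fold changes of STAT3, SOCS3, LIFR and PIM1 in each protocol against all 6 primed libraries (circles), the 3 of letter J (downward triangles) or the 3 of letter K (upward triangles), filled for an adjusted p under 0.05. All SOCS3 points against J are open, while the STAT3 points of TL2i, NHSM-v, 4i/L/b and t2iLGöY are filled and right of 0 in each setting.

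SOCS2, a related inhibitor best known for damping growth hormone signals through STAT5, was called higher in 4 protocols, and LCDM was the only one of them in which SOCS3 was called lower. Primed libraries held 12.2 to 25.7 CPM (median 18.3 CPM). LCDM reached 93.7, 80.0 and 72.8 CPM, a log2 change of 2.15 ± 0.19 (adjusted p = 2.56e-07), and t2iLGöY reached 61.4, 70.2 and 67.7 CPM (1.87). Both stood apart from all other groups, with the step from TL-CDK8/19i to t2iLGöY passing at a log2 difference of 0.88 (adjusted p = 0.000685). TL-CDK8/19i (32.5, 39.8 and 36.3 CPM, 0.91) and NHSM-v (34.7, 26.95 and 35.7 CPM, 0.78) were called higher too, without overlap with primed cells. In 4i/L/b it was 27.6, 25.2 and 27.8 CPM (0.49, adjusted p = 0.0625), a result on the edge of the threshold: it passed under 7 of 17 alternatives, among them DESeq2 (adjusted p = 0.0316), the fit of all 8 groups (0.0132) and the fit without primed J3 (0.62, adjusted p = 0.00956). TL2i and E-NHSM overlapped primed cells. Over the 8 group means, SOCS2 and SOCS3 had r = 0.0468 (Pearson, log2 CPM). LCDM and t2iLGöY also had the highest summed neural markers, 3176 to 3500.3 and 1996 to 2177 CPM, whose part in the SOCS2 levels was not tested.

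PIM1, a survival kinase encoded by a STAT3 target gene, had the largest falls among the members. Its primed levels ran from 143 to 254 CPM with a median of 198 CPM. With t2iLGöY it was 24.7, 23.0 and 19 CPM, a log2 change of -3.13 ± 0.20 (adjusted p = 4.86e-09). LCDM (30.3, 32.7 and 28.4 CPM, -2.70) and NHSM-v (35.4, 36.3 and 32.2 CPM, -2.55) were close behind. TL2i held more of it, at 81.5, 71.8 and 82.4 CPM (-1.34, adjusted p = 1.81e-05), as did E-NHSM at 126, 105 and 98.9 CPM (-0.86). All libraries of these 5 protocols lay below every primed library. 4i/L/b (179, 148 and 169 CPM) and TL-CDK8/19i (138, 156 and 175 CPM) overlapped primed cells and did not pass. TL-CDK8/19i did pass as lower without primed J2 (-0.48, adjusted p = 0.0170) or J3 (-0.43, adjusted p = 0.0411). It also passed in the fit of all 8 groups (-0.35, adjusted p = 0.0299). Levels of neighbours in the order differed more often than for any other member: 4 of 7 neighbouring pairs and 25 of 28 pairs passed.

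BCL3, an IκB family protein that acts in the nucleus and another gene induced through LIF and STAT3, was close to the detection limit. The 6 primed libraries held 7 counts together, and 4 of them held 0. All protocols had more, from 1.32 CPM in LCDM to 4.08 CPM in t2iLGöY, against 0.110 CPM in primed cells, and no library of any protocol overlapped a primed one. The ratio of pooled, depth-scaled counts was 36.8 in t2iLGöY (exact Poisson 95% interval 17.5 to 93.0, counting error only), 25.1 in E-NHSM (11.9 to 63.4) and 15.6 in TL2i (7.26 to 39.8). The lowest was 11.7 in LCDM (5.42 to 30.2). TL-CDK8/19i, with 52 counts in all, had a ratio of 16.6 (7.51 to 43.3) but did not pass the filter on low counts in that comparison. In the fit of all 8 groups BCL3 was tested there and passed as higher (3.93, adjusted p = 0.000170). Of the 7 primed counts, 5 came from K3, and without it the fitted log2 change rose from 3.45 to 4.75 in LCDM and from 5.09 to 6.31 in t2iLGöY, so the ratios depend on that library. BCL3 was called higher in the other 6 protocols. There it passed the filter on low counts only through the protocol libraries, so no lower call was possible. The call was lost without any 1 of the E-NHSM libraries (adjusted p from 0.0552 to 0.0707), without TL2i replicate 1 or 2 (0.0711 and 0.0726), and without any LCDM library or primed J1 or K2 (0.0512 to 0.118). In LCDM it was also lost with DESeq2 (adjusted p = 0.0557), with no filter on low counts (0.0697) and against letter K alone (0.0548). Among the protocols, BCL3 did not separate those with tamoxifen from those without.

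The study design allows the protocols with activated STAT3-ERT2 to be set against the other 5. Weighted equally, TL2i and TL-CDK8/19i had higher PIM1 (log2 difference 1.05 ± 0.06), JAK2 (0.69 ± 0.10) and STAT3 (0.52 ± 0.06) and lower SOCS2 (-0.49 ± 0.11) and JAK1 (-0.44 ± 0.07). These 5 of 9 members compare with 55.6% of all genes called in this contrast. SOCS3 did not pass (-0.13 ± 0.09, adjusted p = 0.211), nor did LIFR (0.15), IL6ST (0.05) or BCL3 (-0.48). LIFR passed without TL2i replicate 1 (0.23, adjusted p = 0.0449). With the primed libraries as a further group among the others, LIFR (0.29, adjusted p = 0.0363) and IL6ST (0.33, adjusted p = 0.00973) both passed as higher.

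The mean of the 2 protocols hid opposite changes. Set against the same 5 protocols on its own, TL2i had higher STAT3 (1.53), LIFR (1.13) and IL6ST (0.44), and TL-CDK8/19i had lower STAT3 (-0.49), LIFR (-0.84) and IL6ST (-0.35), with all 6 differences past the test. The rise of STAT3 in the pooled contrast therefore came from TL2i. PIM1 and JAK2 were higher in both, by 0.57 and 0.36 in TL2i and by 1.52 and 1.02 in TL-CDK8/19i, and JAK1 was lower in both, by -0.52 and -0.37. The JAK2 call in TL2i was lost without TL2i replicate 1 (0.33, adjusted p = 0.123) or 2 (0.25, adjusted p = 0.251). SOCS3 was lower in TL2i (-0.39, adjusted p = 0.00943) and was not called in TL-CDK8/19i (0.12, adjusted p = 0.389), and SOCS2 was lower in TL2i (-0.80) with -0.18 in TL-CDK8/19i. In all, 8 of 9 members were called in TL2i, where 43.8% of genes were, and 6 of 9 in TL-CDK8/19i, where 61.4% were.

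Libraries of 1 protocol share its medium, so the protocol was also taken as the unit. Over the 7 protocol means of log2 CPM, a two-sided exact permutation test of 2 against 5 cannot go below p = 0.0952. JAK2 reached that value, with TL-CDK8/19i first and TL2i second of the 7, and no other member did. For PIM1, TL2i ranked behind 4i/L/b, TL-CDK8/19i and E-NHSM (exact p = 0.476). For STAT3, TL2i ranked first, while only E-NHSM and LCDM ranked below TL-CDK8/19i (exact p = 0.571). For SOCS3, only LCDM ranked below TL2i, and t2iLGöY and NHSM-v ranked above TL-CDK8/19i (exact p = 0.762).

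**Figure D4:**
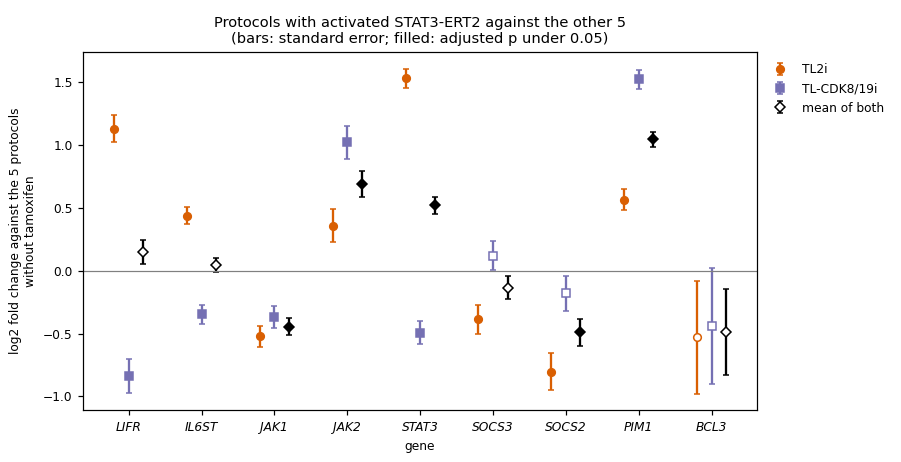
Log2 fold changes of the 9 genes in TL2i (circles), TL-CDK8/19i (squares) and the mean of both (diamonds) against the 5 protocols without tamoxifen, with the standard error as bars and filled points for an adjusted p under 0.05. STAT3, LIFR and IL6ST lie on opposite sides of 0 in the 2 protocols, and PIM1 and JAK2 lie above 0 and JAK1 below 0 in both.

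A direct comparison of TL-CDK8/19i with TL2i, which differ in the inhibitors added to LIF and tamoxifen, called 7 of 9 members, 4 higher and 3 lower in TL-CDK8/19i, where 64.9% of all genes were called, 31.5% higher and 33.3% lower. TL-CDK8/19i had less STAT3 (log2 difference -2.03 ± 0.16, adjusted p = 1.22e-07), LIFR (-1.97 ± 0.18) and IL6ST (-0.78 ± 0.11). It had more PIM1 (0.96 ± 0.10), JAK2 (0.66 ± 0.15), SOCS2 (0.62 ± 0.14) and SOCS3 (0.51 ± 0.14, adjusted p = 0.00619). The SOCS3 difference did not pass in the fit of all 8 groups (0.54, adjusted p = 0.0515). JAK1 (0.16) and BCL3 (0.08) were not called. None of the libraries overlapped for STAT3 or SOCS3, nor for JAK1, which was not called. In TL2i, STAT3 was at 762 to 789 CPM and SOCS3 at 20.6 to 22.0 CPM. The summed pluripotent markers also differed, 538 to 624 CPM in TL2i and 1719 to 2354 CPM in TL-CDK8/19i, as did the fibroblast markers, 2958 to 5750.3 CPM and 8710 to 11281 CPM. Neural markers summed to 493 to 527 CPM in TL2i and 174 to 247 CPM in TL-CDK8/19i. In the same order, 5 trophoblast markers summed to 14.4 to 23.5 and 134 to 227 CPM (GCM1 and ELF5 at or under 3 counts in TL-CDK8/19i), 5 mesoderm markers to 8.04 to 12.3 and 52.9 to 107 CPM, and 5 endoderm markers to 45.5 to 76.7 and 23.8 to 39.3 CPM. The part of any of these in the members' differences was not tested.

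Across the 8 group means of log2 CPM, taken from the same libraries for every gene, the members did not move as a block. Of 36 pairs, IL6ST and JAK1 were most alike (Pearson r = 0.861), followed by STAT3 and LIFR (0.791) and by STAT3 and IL6ST (0.719). STAT3 and its feedback inhibitor SOCS3 had r = -0.0705. The most opposed pair was PIM1 and SOCS2 (-0.773). These are descriptions over n = 8 groups.

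The same measure over the 9963 genes with enough signal named the nearest neighbours of 3 members. For STAT3 they were BCL9L (r = 0.966), a cofactor of β-catenin, ZBTB4 (0.949), a zinc finger protein that binds methylated DNA, and DNAJB2 (0.945), a co-chaperone. For LIFR they were KIF13B (0.981), a kinesin motor, ARRDC1 (0.936), an arrestin-domain protein, and ZNF530 (0.932). For SOCS3 they were C1H1orf122 (0.962), EMB (0.941), a membrane glycoprotein, and DYNLL1 (0.936), a dynein light chain. With n = 8 and 9963 genes searched, high values are found for many genes.

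Beyond the 9 genes, 63 symbols of the pathway, members included, were listed by role, and 61 of them were in the tables. STAT5B and PTPN2 were not analysed here. Of 6 gp130-family receptors, 5 were called higher with NHSM-v, 4i/L/b and TL2i, 4 with t2iLGöY and TL-CDK8/19i and 2 with E-NHSM and LCDM, and none was called lower. The shares of all genes called higher were 28%, 26.6%, 25.6%, 27.1%, 22.3%, 11.1% and 28.2% in that order, so that 2 of 6 in LCDM is near the background. Estimates that were not called included falls, such as -1.59 for CNTFR, the CNTF receptor, with E-NHSM, an example chosen after its value was seen. The median log2 change of the list was 1.78 with TL2i, where that of all genes tested was 0.07, and 0.37 with LCDM, where that of all genes was 0.03. Between the tamoxifen protocols, 5 of the 6 receptors were lower in TL-CDK8/19i than in TL2i and none was higher, with a median of -0.95 beside -0.04 over all genes.

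Of the 5 or 6 ligands tested per protocol, 4 were called higher and none lower with 4i/L/b, 2 higher and none lower with TL-CDK8/19i, and 1 higher and none lower with NHSM-v. With E-NHSM 3 were called lower and none higher, with t2iLGöY 2 lower and none higher, with LCDM 3 lower and 1 higher, and with TL2i 1 lower and none higher. Of all genes, 26.6% were called higher with 4i/L/b, 22.3% with TL-CDK8/19i, 28% with NHSM-v and 28.2% with LCDM. Called lower were 15.1% with E-NHSM, 27.2% with t2iLGöY, 28.9% with LCDM and 25.2% with TL2i. With so few ligands tested, counts of 1 or 2 are near those shares. LIF itself was 7.10 CPM in primed cells and 112 and 99.0 CPM with 4i/L/b and NHSM-v (log2 changes 3.94 and 3.78). It was called higher with TL-CDK8/19i too (21.1 CPM, 1.52), but lower with E-NHSM (0.857 CPM, -3.04), t2iLGöY (0.949 CPM, -2.86) and LCDM (0.507 CPM, -3.79). TL2i did not pass (4.88 CPM, -0.54, adjusted p = 0.288). LIF was chosen for mention after its values were seen, as the ligand of the axis. The 3 protocols in which it rose were those with the highest summed fibroblast markers, 7864 CPM and above, whose part in the rise was not tested.

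Among the other kinases and STATs, STAT2, a transcription factor of interferon signaling, was called higher in all 7 protocols. It went from 24.4 CPM in primed cells to between 38.8 CPM (TL-CDK8/19i) and 67.1 CPM (NHSM-v), log2 changes of 0.62 to 1.44. How many of all genes were called higher in all 7 was not counted, here or for SOCS7 below. In the contrast of activated STAT3-ERT2 with the other 5 protocols, TYK2, a JAK family kinase, had a fall next in size to that of CISH among called pathway genes with a mean log2 CPM of 3 or more (-0.65). Its levels were 29.1 CPM in TL2i and 11.3 CPM in TL-CDK8/19i, and only TL-CDK8/19i passed on its own (-1.34, against 0.05 in TL2i).

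Of 16 inhibitors tested against primed cells, between 1 (E-NHSM) and 5 (NHSM-v, t2iLGöY and TL-CDK8/19i) were called higher and between 3 and 5 lower. These counts lie near those of all genes, of which 11.1% (E-NHSM) to 28.2% (LCDM) were called higher and 15.1% (E-NHSM) to 30.6% (NHSM-v) lower. SOCS7, a SOCS family member, was higher in all 7 protocols, at 60.8 to 120.1 CPM from 39.7 CPM (0.61 to 1.60). Among called pathway genes with a mean log2 CPM of 3 or more, CISH, an inhibitor induced by STAT5, had the largest fall with activated STAT3-ERT2 (-0.77), again called in TL-CDK8/19i on its own (-1.54) and at -0.01 in TL2i.

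Of the 23 listed STAT3 target genes, which include SOCS3, PIM1 and BCL3, more were called lower than higher against primed cells in 6 of 7 protocols. Over all genes, lower calls also outnumbered higher calls in every protocol but TL2i, so this tally alone does not set the targets apart. LCDM had 3 higher and 14 lower of 21 tested (median log2 change -0.88, all genes 0.03), beside 28.2% and 28.9% of all genes. With t2iLGöY 2 were higher and 10 lower of 23 (-0.88, all genes 0.02), beside 27.1% and 27.2%. TL2i gave 4 higher and 10 lower of 23 (-0.53, all genes 0.07), beside 25.6% and 25.2%. E-NHSM gave 6 higher and 10 lower of 23 (-0.54), beside 11.1% and 15.1%, and NHSM-v 7 higher and 10 lower of 22 (-0.38), beside 28% and 30.6%. With TL-CDK8/19i 4 were higher and 6 lower of 21 (0.11, all genes 0.02), near the 22.3% and 23.8% of all genes. In 4i/L/b 9 were higher and 7 lower of 22 (0.19), beside 26.6% and 29%. MYC and FOS, growth-linked transcription factors, fell in all 7 protocols. They were the 2 of the 63 listed symbols called lower in all 7, as STAT2 and SOCS7 were the 2 called higher. How many of all genes were called alike in all 7 was not counted. The log2 change of MYC ran from -6.25 in LCDM to -1.17 in TL-CDK8/19i, and that of FOS from -4.63 in t2iLGöY to -0.89 in 4i/L/b.

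With activated STAT3-ERT2 against the other 5 protocols, 12 of 23 targets were higher and 3 lower, beside 31.5% and 24.1% of all genes. Taken alone, TL2i had 5 higher and 1 lower, beside 26.3% and 17.6% of all genes, and TL-CDK8/19i had 14 higher and 4 lower, beside 33.6% and 27.8%. KLF5, a Krüppel-like factor of mouse ESC self-renewal, had the largest rise under the same minimum level (2.39), at 209 CPM in TL-CDK8/19i and 20.9 CPM in TL2i, with log2 differences from the 5 others of 4.04 and 0.75. 4i/L/b, without tamoxifen, held 157 CPM. SALL4, a pluripotency factor that is also among the 9 pluripotent markers, came second (1.95), at 192 CPM in TL-CDK8/19i and 90.9 CPM in TL2i, below its primed level of 349 CPM and the 504 CPM of E-NHSM.

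**Figure D5:**
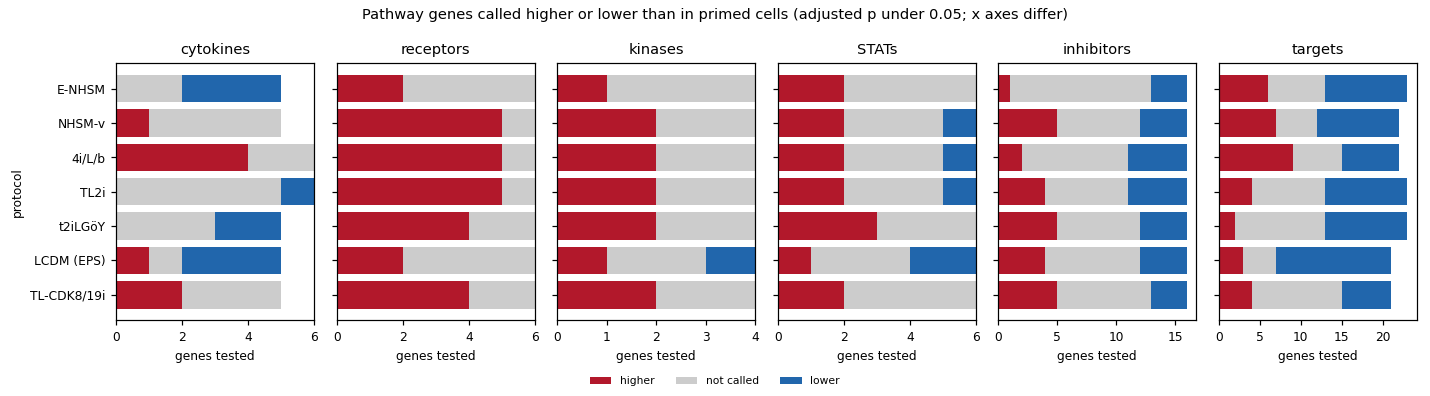
Number of genes tested in each pathway list that were called higher (red), lower (blue) or not called (gray) in each protocol against primed cells. No receptor was called lower in any protocol, while the targets held 6 to 14 genes called lower in each.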

How the data were processed

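The authors sequenced directional mRNA libraries from 200 ng of RNA as single reads, and the submitters' processing notes name bcl2fastq, cutadapt, HISAT2 and HTSeq. Their versions, the genome build, the annotation and the strand setting are not given in the sources used here. The deposited values are raw read counts per gene symbol, used as deposited. Differences were tested with edgeR 4.0.16 (R 4.3.3): quasi-likelihood F test, TMM, filterByExpr, Benjamini-Hochberg adjustment over all genes tested, threshold 0.05. The standard error is the fold change divided by the square root of its F. Each protocol was fitted with the 6 primed libraries, contrasts among protocols on 21 libraries, pairs of groups on all 27. CPM used TMM factors over 27 libraries, log2 CPM a prior count of 2. A floor of 3 counts equals 0.141 to 0.429 CPM, which covers counting error only. Members and lists were chosen with earlier results of these data known. Named genes were the 9 members, pathway genes called alike in all 7 protocols, the 2 largest rises and falls with activated STAT3-ERT2 whose mean log2 CPM was no lower than 3, and the 3 genes most like SOCS3, STAT3 and LIFR. On simulated counts for TL2i against primed (13423 genes), 85.7% of genes changed by 2 and 56.6% of those changed by 1 (log2) were recovered. Of the calls made there, 7.28% were genes left unchanged. Whether these rates hold in the data, where 50.7% of genes were called with TL2i, was not tested. DESeq2 1.42.0 and other settings were alternatives.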

Additional observations from a re-analysis of the deposited data

Results flagged for a closer look

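The difference between the protocols with activated STAT3-ERT2, each set against the same primed cells, was tested directly as TL-CDK8/19i minus TL2i (edgeR, adjusted over all genes), and it passed for 7 members. STAT3 differed by -2.03 on the log2 scale, LIFR by -1.97 and IL6ST by -0.78. PIM1 differed by 0.96, JAK2 by 0.66, SOCS2 by 0.62 and SOCS3 by 0.51. For SOCS3 the difference did not pass when all 8 groups were fitted together (0.54, adjusted p = 0.0515). All 3 libraries of TL-CDK8/19i were on 1 side of all 3 TL2i libraries for each of these genes. The same held for JAK1, which was not called, and 64.9% of all genes were called in this comparison. How many of all genes separated in this way was not counted. In the 9 primed groups of 6 libraries, 1 per member, no library lay far enough from the others to be marked, where chance marks about 1 in 20 groups.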

How the results depend on the processing

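Over the 9 members and 11 comparisons, 98 values were recomputed under alternatives, which gave 1890 values. Of these, 1790 kept direction and side of the threshold, 76 lost the call, 22 gained one and 2 turned. Both that turned were STAT3 against the primed libraries of letter K only, -0.34 with E-NHSM and -0.31 with LCDM, and the cause was not tested. A minimum absolute log2 fold change of 1 left 1 member each in E-NHSM and TL-CDK8/19i against primed and in activated STAT3-ERT2 against the others, and 2 each in TL2i and in TL-CDK8/19i against the 5 others and in TL-CDK8/19i against TL2i, as this construction demands. Leaving out 1 library gave 2 to 4 members called for E-NHSM, each E-NHSM library left out giving 2. DESeq2 changed 2 of 98 calls and upper-quartile normalization 2. Replicate numbers did not pair the libraries: over 63 pairs with the same number, the correlation of deviations ranged from -0.127 to 0.064, none over 0.1. A replicate block, possible only among the protocols, kept all 36 values, with 5, 8, 6 and 7 members called as before. Depth limited BCL3, with 7 counts in all primed libraries.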

Other observations

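The genes in these sentences were chosen after their values were seen. The 3 PIM kinases did not move alike. PIM2 was called lower in 6 protocols, from 119.9 CPM in primed cells to as little as 4.85 CPM with LCDM, and higher in E-NHSM (174 CPM), whereas PIM1 fell in E-NHSM. PIM3, at 13.3 CPM in primed cells, was called higher in 2 protocols, 4i/L/b (55.2 CPM) and NHSM-v (27.3 CPM), and in none lower. BCL6, a transcriptional repressor, was called higher in 4i/L/b (131 CPM), TL2i (94.9 CPM), NHSM-v (87.1 CPM) and TL-CDK8/19i (77.4 CPM) from 15.2 CPM in primed cells, and in no other protocol. SH2B3, an adaptor that restrains JAK2, was called lower in 6 protocols, from 208 CPM to as little as 11.3 CPM with t2iLGöY, and stood at 207 CPM with TL-CDK8/19i, the protocol in which JAK2 was called higher. CNTFR, the ligand-binding receptor for CNTF, rose from 1.26 CPM in primed cells to between 23.0 CPM (TL-CDK8/19i) and 129.6 CPM (LCDM) in 6 protocols and was 0.415 CPM with E-NHSM.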
